A study of Mus musculus with 16 samples.

Results

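The mouse miRs of the imprinted Dlk1-Dio3 locus on chromosome 12 were followed through 6 early hematopoietic populations of adult bone marrow. The array carried 567 mouse miRs, and the 73 whose annotated position lay between 110700000 and 111100000 on chromosome 12 (build mm9) were taken as members, with each arm of a hairpin counted on its own. The rule used positions and no measured value, but it was chosen with earlier results of these data known. RNA came from female C57Bl/6 mice of 6 to 8 weeks with no treatment or engineered allele named, and 10 to 20 mice were pooled for each replicate. Bone marrow was depleted of lineage-positive cells and enriched for c-kit. Long-term HSC (LT-HSC, 1 array), short-term HSC (ST-HSC, 3 arrays) and multipotent progenitors (MPP, 3 arrays), together called HSC subsets, were then isolated in a single FACS sort. A separate sort gave the myeloid progenitors, with 3 arrays for each kind: megakaryocyte-erythroid (MEP), granulocyte-monocyte (GMP) and common myeloid progenitors (CMP). Sort and HSC status therefore cannot be told apart.

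The Dlk1-Dio3 locus is expressed according to parent of origin: the protein-coding genes Dlk1, Rtl1 and Dio3 are read from the paternal chromosome, and the long noncoding RNAs Meg3, Rian and Mirg, together with the miRs, from the maternal one. The miRs are thought to be cut from long maternal transcripts, so a shared promoter region could feed many mature products, while the processing and stability of each hairpin can still set its level. The locus is known for high expression in brain, placenta and embryo, for its silencing in some induced pluripotent stem cell lines, and for a part of the maternal noncoding genes in long-term HSC of the fetal liver.

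Positions and RefSeq mature sequences (GRCm38.p6) were matched for 70 of the 73 members, and 69 different seeds (bases 2 to 8 of the mature miR) were found among them. Only miR-376b* and miR-376c*, neither of them detected, shared one. Members with signal enough for a test were miR-134, miR-341, miR-370, miR-376c, miR-487b, miR-494 and miR-770-3p. The mature sequences of the 5 of these that RefSeq lists are shown to identify members described below. They are written 5′ to 3′ with the seed in capitals, and no seed is shared between any pair.
miR-770-3p: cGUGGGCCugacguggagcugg
miR-341-3p: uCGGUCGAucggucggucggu
miR-370-3p: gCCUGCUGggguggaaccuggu
miR-494-3p: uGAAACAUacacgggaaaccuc
miR-134-5p: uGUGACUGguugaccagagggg
On the array, which uses older names, these are miR-770-3p, miR-341, miR-370, miR-494 and miR-134. Array positions in mm9 follow the stretch paired by the longest probe. They were chr12:110801963-110801975 for miR-770-3p, inside Meg3, chr12:110849772-110849786 for miR-341 and chr12:110856522-110856536 for miR-370, both inside Rian. They were chr12:110953584-110953598 for miR-494, chr12:110960980-110961000 for miR-376c, chr12:110965596-110965613 for miR-487b and chr12:110972364-110972376 for miR-134, all in the dense miR-379 to miR-410 group and outside the RefSeq spans of Rian and Mirg.

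Depth and slide have to be known before the values. Summed over its probes, the background-subtracted signal of an array was lowest for LT-HSC, at 35254.7 units, and highest for GMP 2, at 336394.4. Replicates 1 and 2 of CMP, GMP and MEP lay on slide 1, which was read on another scanner model than the rest. Replicate 3 of these, the LT-HSC array and ST-HSC 1 lay on slide 2, and the MPP arrays with ST-HSC 2 and 3 on slide 3. Negative control spots reached 9.94 to 44.3 units at their 95th percentile on slide 1, against 1.53 to 2.21 on slide 2 and 1.99 to 3.35 on slide 3. A signal thus had to be higher in units on slide 1 to exceed the controls. The share of mouse miRs detected per array was still 25.6% to 34.4% on slide 1 and 24.9% to 31.6% on slide 2. The stem and early progenitor miRs miR-125b-5p, miR-99a and miR-126-3p had higher log2 levels in HSC subsets than in myeloid progenitors, by 3, 2.92 and 1.68. However, miR-99a and miR-126-3p had their highest means in MPP, at 9.16 and 8.56, and miR-126-3p had 7.2 in ST-HSC against 7.37 in CMP. Markers of GMP and MEP followed these labels. Granulocyte-monocyte miR-223 was highest in GMP at a mean log2 level of 14.04. Erythroid miR-144, miR-451 and miR-486 were highest in MEP at 9.25, 12.12 and 7.74. The LT-HSC array, the only one of its population, also had miR-451 at 11.15 and miR-144 at 5.29, against ST-HSC means of 7.44 and 2.59.

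Most of the cluster gave no signal in these cells. A miR was called detected on an array when the scanner software marked a share of 0.5 or more of a probe's spots as well above background. By this rule 11 of the 73 members, or 15.1%, were detected on at least 1 array, against 275 of the 567 mouse miRs, or 48.5%. The other 62 members were detected on no array. They included miR-127, miR-136, miR-431, miR-433 and miR-434-3p, known products of the antisense Rtl1 transcript that were picked for mention after their values were seen, and most of the miR-379 to miR-410 group. On slide 3 the highest probe signal of these 62 members had a median of 1.07 units and a maximum of 5.17, and on slide 2 a median of 1.12 and a maximum of 7.23. On both slides the medians lay below the 95th percentile of the negative controls. No level under that of the controls can be told from absence.

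Detected members lay in both long stretches of the locus, but not evenly. Inside the RefSeq spans of Rtl1 and Mirg only miR-433* and miR-412 were detected, each on 1 array. In the first stretch, from miR-770-5p to miR-370, 4 of 22 members were detected, and in the last, from miR-379 to miR-410, 6 of 50. miR-882, between these stretches, was detected on 1 array. Of 24 hairpins with 2 arms on the array, 3 had a detected arm and none had both. Of 25 hairpins with 1 arm on the array, 8 were detected. miR-494 and miR-370 were detected on all 16 arrays, miR-341 on 12, miR-134 and miR-487b on 10 each, miR-770-3p on 7 and miR-376c on 3. miR-412, miR-433*, miR-667 and miR-882 were detected on 1 array each.

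**Figure D1:**
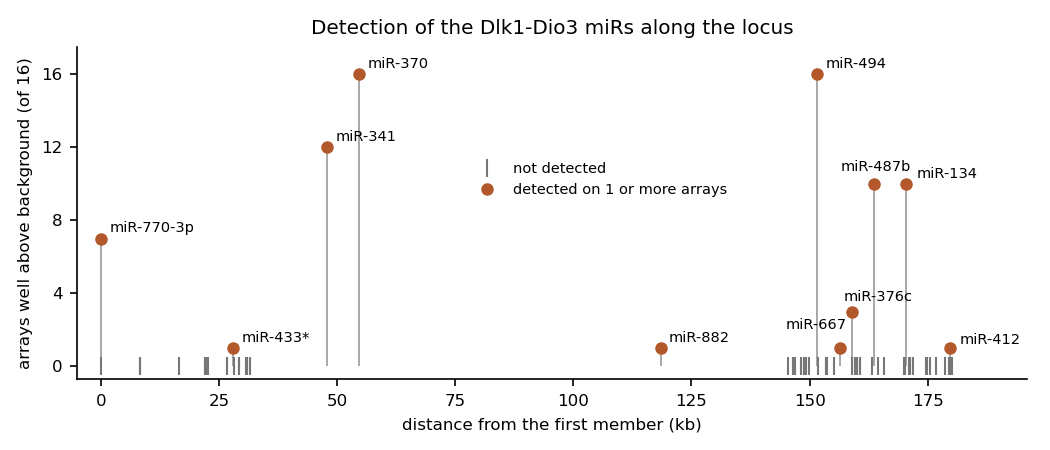
Number of arrays (of 16) on which each of the 73 members was well above background, against the distance in kb from the first member. Of the 11 detected members, miR-341, miR-370 and miR-882 follow each other, and only miR-370 and miR-494 reach 16 arrays.

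Base composition and probe length went with detection. GC content of the mature sequence had a median of 66.7% (45.5% to 72.7%) in the tested members with a listed sequence and of 47.4% (23.8% to 72.7%) in the undetected ones. Agilent probes pair with a shorter 3′ stretch of a GC-rich miR, and the longest probe of a member paired with a median of 15 bases in the 7 tested members and 18 in the 62 undetected ones. The ranges overlapped, from 13 to 21 and from 13 to 22 bases. The part of probe chemistry in which members were detected was not tested.

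Per array, 2 to 9 members were detected. Counts were 4 on the LT-HSC array, 5, 9 and 6 on ST-HSC 1 to 3, 5, 6 and 6 on MPP 1 to 3, 3, 2 and 4 on CMP 1 to 3, 3, 2 and 5 on GMP 1 to 3, and 5, 6 and 7 on MEP 1 to 3. MEP arrays had 6 ± 1 detected members (SD, n = 3) and the other arrays 4.62 ± 1.94 (n = 13), and the counts overlapped (two-sided exact permutation test, p = 0.309). Within slide 1, MEP had 3 more than CMP and GMP, at p = 0.0667, the smallest p that this exact test could give there. HSC subset arrays had 5.86 ± 1.57 (n = 7) and myeloid progenitor arrays 4.11 ± 1.76 (n = 9, two-sided exact permutation test, p = 0.0751). The difference of 1.75 turned to -4.84 (exact permutation p = 0.0415) when a single spot was enough for detection. Of all 567 mouse miRs, 24.9% to 39.5% were detected on HSC subset arrays, 35.3% to 39.5% on those of slide 3, and 25.6% to 34.4% on myeloid progenitor arrays. Within slide 2, where the background was even, the difference between HSC subset and myeloid arrays was -0.833 (exact permutation p = 0.9, n = 2 and 3).

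The 7 members with a probe well above background on at least 3 arrays, a filter that 41.4% of all mouse miRs passed, were tested in a limma fit over 237 miRs, with Benjamini-Hochberg adjustment over all of them. Of these 7 members 6 differed across the populations by the moderated F test, all except miR-376c, against a background of 82.7% of all tested miRs. A member could pass this filter through the population in which it was high, so the 7 are not a sample of the cluster. All levels below are log2 of quantile-normalized signal, for which the floor was 1.62. In these bulk samples, fewer cells that hold a miR and less of it per cell cannot be told apart. Replicates were separate pools as far as the study's methods say.

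**Figure D2:**
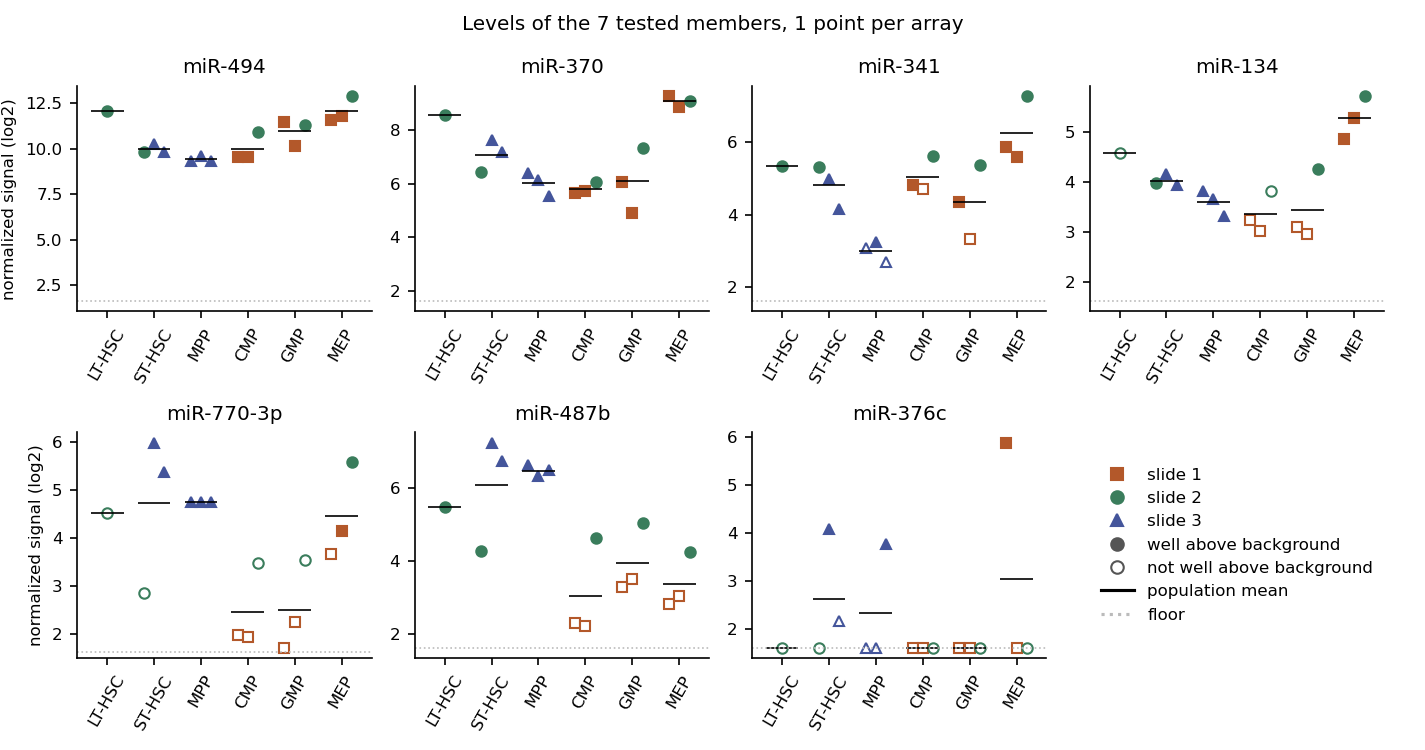
Log2 normalized signal of the 7 tested members, 1 point per array, by population. Symbols mark the slide, open symbols arrays not well above background, bars population means and the dotted line the floor. miR-494, miR-370, miR-341 and miR-134 have their highest mean in MEP, and the highest points of miR-487b are slide 3 arrays. For miR-770-3p the highest point is ST-HSC 2 of slide 3 (5.99), followed by MEP 3 of slide 2 (5.58).

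The clearest feature of the 7 tested members was a group that stood highest in MEP, the progenitors of red cells and platelets. Of the 7 tested members 5 differed between MEP and the mean of the other populations, 4 higher and 1 lower, against 68.4% of all tested miRs (24.1% higher and 44.3% lower). The median difference was 1.48 for the 7 members and -0.47 for all 237 miRs. The 4 that rose were miR-370, miR-134, miR-341 and miR-494.

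miR-370, cut from a hairpin within Rian, lay at 9.28, 8.88 and 9.09 on the MEP arrays. It lay at 8.56 on the LT-HSC array, 6.46, 7.66 and 7.18 on the ST-HSC arrays and 6.41, 6.13 and 5.54 on the MPP arrays. CMP arrays had 5.65, 5.72 and 6.07 and GMP arrays 6.09, 4.93 and 7.33. Every MEP array was above every other array, the LT-HSC array came next after scaling, and the ranges of MPP, CMP and GMP overlapped. Of all tested miRs, 32.9% had no overlap between the MEP arrays and the rest. The level in MEP was higher by 2.36 ± 0.39 (SE, 5.13-fold, limma adjusted p = 0.00013). Before normalization, its signal was 588, 364 and 214 units on the MEP arrays and 176 or less on all others. The LT-HSC array, the dimmest, had 71.7, between the 55.1 of ST-HSC 1 and the 176 and 111 of ST-HSC 2 and 3.

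miR-134, known from neurons where it acts in dendritic spines, was much dimmer. Its levels were 4.86, 5.29 and 5.72 in MEP, 4.58 in LT-HSC, 3.98, 4.16 and 3.94 in ST-HSC and 3.82, 3.67 and 3.32 in MPP. In CMP they were 3.25, 3.02 and 3.82 and in GMP 3.11, 2.97 and 4.27. The MEP arrays again stood above all others, and the difference was 1.48 ± 0.27 (SE, 2.8-fold, limma adjusted p = 0.000344). miR-134 was well above background on all MEP, ST-HSC and MPP arrays but on only 1 of 6 CMP and GMP arrays and not on the LT-HSC array, so the size of its difference is not firm.

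miR-341, also from a hairpin within Rian, had levels of 5.85, 5.6 and 7.26 in MEP. It had 5.33 in LT-HSC, 5.31, 4.97 and 4.16 in ST-HSC, 3.08, 3.24 and 2.69 in MPP, 4.82, 4.7 and 5.62 in CMP and 4.35, 3.32 and 5.37 in GMP. MEP had the highest mean, CMP 3 overlapped with its lowest array, and MPP was lowest with no overlap with any other population. The difference of MEP from the mean of the others was 1.73 ± 0.42 (SE, 3.31-fold, limma adjusted p = 0.00271). Without the 5 arrays of slide 3, which hold all MPP arrays, it was 1.3 with an adjusted p of 0.0539.

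miR-494, of the miR-379 to miR-410 group, was bright on every array. It had 11.57, 11.79 and 12.88 in MEP, 12.07 in LT-HSC, 9.83, 10.24 and 9.79 in ST-HSC and 9.34, 9.58 and 9.34 in MPP. CMP had 9.55, 9.52 and 10.93 and GMP 11.49, 10.12 and 11.31. MEP was highest by mean, the LT-HSC array fell within its range, and all GMP arrays lay below it. The difference was 1.59 ± 0.36 (SE, 3.01-fold, limma adjusted p = 0.00155). The LT-HSC level rests on the scaling of the dimmest array: before normalization its signal was 520 units, inside the 430 to 1000 of the ST-HSC arrays.

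These 4 members kept their sign and stayed called when slide was added to the fit as a block, with differences of 2.97 for miR-370, 1.85 for miR-134, 2.0 for miR-341 and 2.07 for miR-494, in a fit that called 80.6% of all tested miRs. Within slide 1, where all arrays were CMP, GMP or MEP, the differences were 3.48, 1.98, 1.42 and 1.51 in the same order, and all 4 were called, as were 76.4% of all tested miRs. Within slide 2, with MEP 3 against 4 arrays of 4 other populations, they were 1.99, 1.56, 1.86 and 1.84, values that rest on a single MEP array and are given with no test. All probes of each of the 4 pointed the same way. The erythroid markers miR-144, miR-451 and miR-486 were called higher in MEP as well, by 6.41, 4.67 and 4.28, and after scaling their levels on the LT-HSC array were above the ST-HSC means, as were those of all 4 members. Their part in these levels was not tested.

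Of the remaining 3 members, miR-487b was called lower and miR-770-3p was not called without slide in the fit, and both are described with the HSC subsets below, where slide changes their values. miR-376c differed by 1.07 (limma adjusted p = 0.239), with a 95% interval of -0.62 to 2.77. It lay at the floor on 12 of 16 arrays, and above it at 5.88 on MEP 1, 4.09 and 2.17 on ST-HSC 2 and 3 and 3.78 on MPP 3. MEP 1 was also the only array on which the muscle miRs miR-1, miR-133a and miR-206 were well above background. Of 11 markers of other tissues on the array, 5 were detected anywhere and none on more than 2 arrays. Their summed signal ran from 10.2 on the LT-HSC array and 11.7 to 32.9 in ST-HSC to 26 to 131 in CMP and 26.7 to 408 in MEP. Their part in the miR-376c signal was not tested.

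GMP against MEP set the pair of myeloid branches side by side. Of the 7 members 5 differed, all lower in GMP, against 62.9% of all tested miRs (21.9% lower and 40.9% higher in GMP). The medians were -1.84 for the members and 0.44 for all miRs. miR-370 was lower by 2.96 ± 0.48 (SE, 7.79-fold, limma adjusted p = 0.000153), miR-134 by 1.84 ± 0.34 (adjusted p = 0.000442) and miR-341 by 1.89 ± 0.53 (adjusted p = 0.0069). miR-494 was lower by 1.1 ± 0.45, at an adjusted p of 0.046, and its call was lost in 16 of 30 alternatives, with adjusted p between 0.00601 and 0.316 over all of them. miR-770-3p was lower by 1.96 ± 0.76 (limma adjusted p = 0.0367), and its call was lost in 8 of 29 alternatives. Over these its difference ran from -2.73 to -0.28. It was not well above background on any GMP array and was so on 2 of 3 MEP arrays. On the scale used here, the bound computed for its MEP mean was 1.85-fold higher. MEP 1, not well above background, is part of that mean, so this is not a firm minimum. Other normalizations need not keep it. For these 5 members no GMP array overlapped with MEP, as for 66.7% of all tested miRs. The count was 3 without GMP 2, MEP 2 or MEP 3, with miR-494 and miR-770-3p lost each time. miR-487b was the only tested member with a higher mean in GMP, by 0.58 (adjusted p = 0.544, 95% interval -1.13 to 2.28), and with slide as a block this difference was called at an adjusted p of 0.0261.

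**Figure D3:**
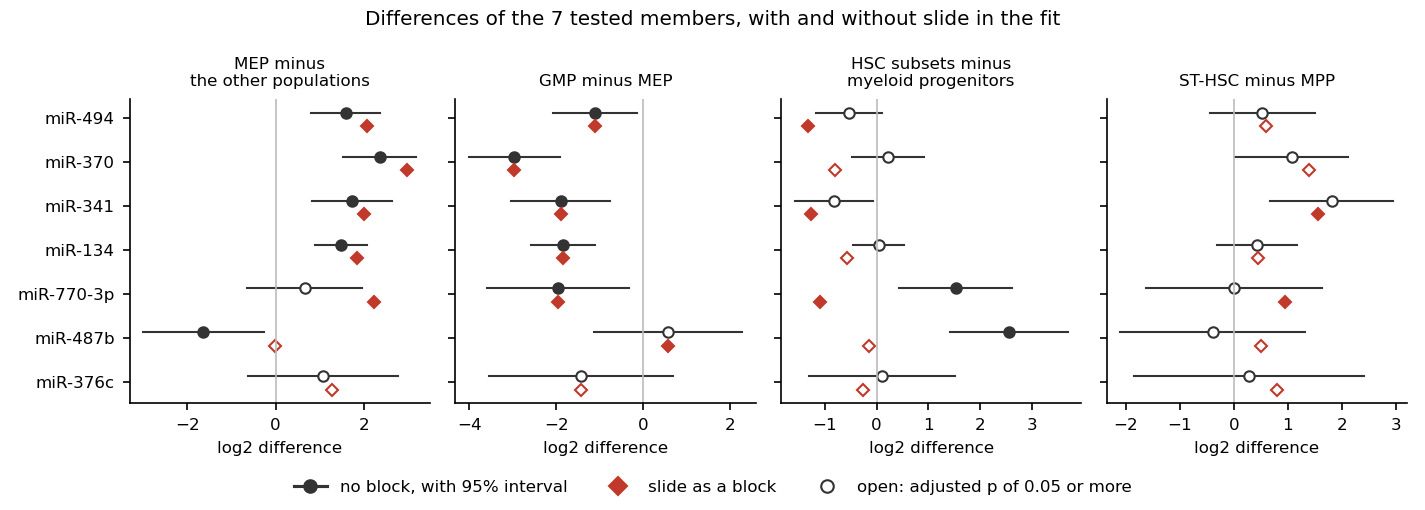
Log2 differences of the 7 tested members in 4 comparisons. Circles are the fit with a mean per population, with 95% intervals, diamonds the fit with slide as a block, and filled symbols have an adjusted p under 0.05. In GMP minus MEP the fits give the same differences, whereas miR-487b and miR-770-3p move from above 0 to below it in HSC subsets minus myeloid progenitors.

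HSC subsets against myeloid progenitors called a different pair, miR-487b and miR-770-3p, both higher in HSC subsets. These were 2 of the 7 members against 48.1% of all tested miRs (25.3% higher and 22.8% lower), and the medians were 0.1 and 0.06. No member had HSC subset arrays that were all above or all below the myeloid ones, which 5.91% of the tested miRs did.

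miR-487b had 5.47 on the LT-HSC array, 4.27, 7.24 and 6.74 on the ST-HSC arrays and 6.62, 6.32 and 6.49 on the MPP arrays. CMP arrays had 2.28, 2.21 and 4.63, GMP arrays 3.29, 3.49 and 5.03 and MEP arrays 2.81, 3.03 and 4.25. The 5 highest were the 5 arrays of slide 3, and in CMP, GMP and MEP the slide 2 array was each time the highest. The difference of 2.56 ± 0.53 (SE, 5.9-fold, limma adjusted p = 0.00162) became -0.14 (adjusted p = 0.69) once slide entered the fit and 0.23 within slide 2, where 2 HSC subset arrays of different populations met 3 myeloid ones. Before normalization the signal was 84.9 to 127 units on slide 3 and 7.49 to 21.6 on all other arrays, ST-HSC 1 included at 11. miR-487b was well above background on all HSC subset arrays and on 3 of 9 myeloid ones, all 3 on slide 2. The lower level of miR-487b in MEP, -1.64 ± 0.63 against the other populations (adjusted p = 0.0345), likewise became -0.02 with the block and 0.1 within slide 1, and its call was lost or reversed in 11 of 31 alternatives.

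miR-770-3p, from a hairpin within Meg3, had 4.53 on the LT-HSC array, 2.86, 5.99 and 5.38 on the ST-HSC arrays and 4.75 on each MPP array. It had 1.98, 1.94 and 3.49 in CMP, 1.72, 2.25 and 3.54 in GMP and 3.67, 4.14 and 5.58 in MEP. It was well above background on the 5 arrays of slide 3 and on MEP 2 and 3 and nowhere else. The difference between HSC subsets and myeloid progenitors was 1.53 ± 0.5 (SE, limma adjusted p = 0.0243). With slide as a block it turned to -1.1 and was called (adjusted p = 0.00245), and within slide 2 it was -0.51. In MEP against the other populations it was 0.66 (adjusted p = 0.349, 95% interval -0.64 to 1.96) without the block. With the block it was 2.24 (adjusted p = 7.6e-07), and within slide 1 it was 1.93 (adjusted p = 0.00113). Its 4 probes ran from -0.51 to 1.53 between HSC subsets and myeloid progenitors, while all pointed to MEP, by 0.66 to 1.24.

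The size of such gaps can be read from arrays of the same population on different slides. ST-HSC 2 and 3, on slide 3, lay above ST-HSC 1, on slide 2, by 2.72 for miR-487b and 2.82 for miR-770-3p. Among all tested miRs the median of this difference was 0.01, and 4.22% had a difference of 2 or more in either direction. For miR-134, miR-494, miR-341, miR-370 and miR-376c it was 0.07, 0.19, -0.75, 0.96 and 1.51. In GMP, the slide 2 array lay above those of slide 1 by 1.82 for miR-370, 1.53 for miR-341 and 1.23 for miR-134. In MEP these gaps were 0.01, 1.54 and 0.65. They set 1 array against 2, with no test, and slide and pool cannot be told apart there. For ST-HSC, whether slide 3 or the pools hybridised to it carry the difference cannot be told apart with 1 ST-HSC array on slide 2.

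For miR-341 and miR-494 the HSC subset comparison changed with the LT-HSC array. miR-341 was lower in HSC subsets by 0.83 (limma adjusted p = 0.0682) and miR-494 by 0.53 (adjusted p = 0.159). Without the LT-HSC array the differences were -1.3 (adjusted p = 0.0053) and -1.33 (adjusted p = 0.00172), and 4 of 7 members were called, as were 61.6% of all tested miRs. miR-341 was also called without ST-HSC 1 (-0.91, adjusted p = 0.0482) or GMP 2 (-0.99, adjusted p = 0.0231). With no normalization miR-341 and miR-494 were called at -1.29 and -1.83. With slide as a block they were -1.28 and -1.33, at adjusted p of 0.0124 and 0.0135. Without the slide 3 arrays they were 0.08 and -0.08, and within slide 2 both were -0.76. Over all alternatives, miR-341 was called in 5 of 30 and miR-494 in 4 of 31. miR-134 and miR-370 differed by 0.04 and 0.22, with 95% intervals of -0.46 to 0.53 and -0.47 to 0.92.

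ST-HSC against MPP called none of the 7 members in the limma fit, 2 of them at an unadjusted p under 0.05, against 4.64% of all tested miRs called (1.27% higher and 3.38% lower in ST-HSC). miR-341 was higher in ST-HSC by 1.81 ± 0.53 (adjusted p = 0.0758) and miR-370 by 1.07 ± 0.48 (adjusted p = 0.285). The ST-HSC and MPP arrays did not overlap for miR-134, miR-341, miR-370 and miR-494, each with the higher values in ST-HSC, as 35.4% of the tested miRs did not. Within slide 3, with ST-HSC 2 and 3 against the MPP arrays, 3 members were called higher in ST-HSC, in a fit that called 24.9% of all tested miRs. These were miR-341 by 1.56 (adjusted p = 0.0256), miR-370 by 1.39 (adjusted p = 0.0347) and miR-770-3p by 0.94 (adjusted p = 0.0296).

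Whether the cluster moved as a unit was described by the correlation of levels between members over the 16 arrays, which share slides, populations and the scaling. The 21 pairs of tested members had a median Pearson r of 0.29, from -0.39 to 0.94, and 9 of them, or 42.9%, were over 0.5. Without miR-376c, which lay at the floor on most arrays, the median of the other 15 pairs was 0.57. With 1 array left out the median ran from 0.26 to 0.64, at 0.61 to 0.64 without ST-HSC 2, MPP 3 or MEP 1, each of which drops miR-376c from the test. Among the 27966 pairs of all tested miRs the median was 0.05, and 25.3% were over 0.5. miR-134 and miR-370, which lie in different stretches of the locus, had the highest r, 0.94. Pairs among miR-134, miR-341, miR-370 and miR-494 ran from 0.71 to 0.94. miR-487b correlated with miR-770-3p at 0.79, and with these 4 from -0.39 to 0.05.

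Subtracting the slide means changed the grouping. The r of miR-770-3p rose from 0.57 to 0.93 with miR-134, from 0.52 to 0.9 with miR-370, from 0.07 to 0.77 with miR-341 and from 0.14 to 0.81 with miR-494, and it fell from 0.79 to 0.21 with miR-487b. miR-487b stayed at 0.43 or less with every member. The median of the 21 pairs was then 0.49, against 0.12 for all miRs. With slide taken out, the pairs among miR-134, miR-341, miR-370, miR-494 and miR-770-3p ran from 0.59 to 0.94, those of miR-487b from -0.15 to 0.43 and those of miR-376c from 0.1 to 0.49. Subtracting population means in place of slide means gave another picture: miR-487b then had r of 0.97 with miR-770-3p, 0.69 with miR-134, 0.64 with miR-494, 0.62 with miR-370 and 0.4 with miR-341. In every replicated population except MPP the arrays left to vary then lay on different slides. The other 66 members were too rarely detected to be followed.

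**Figure D4:**
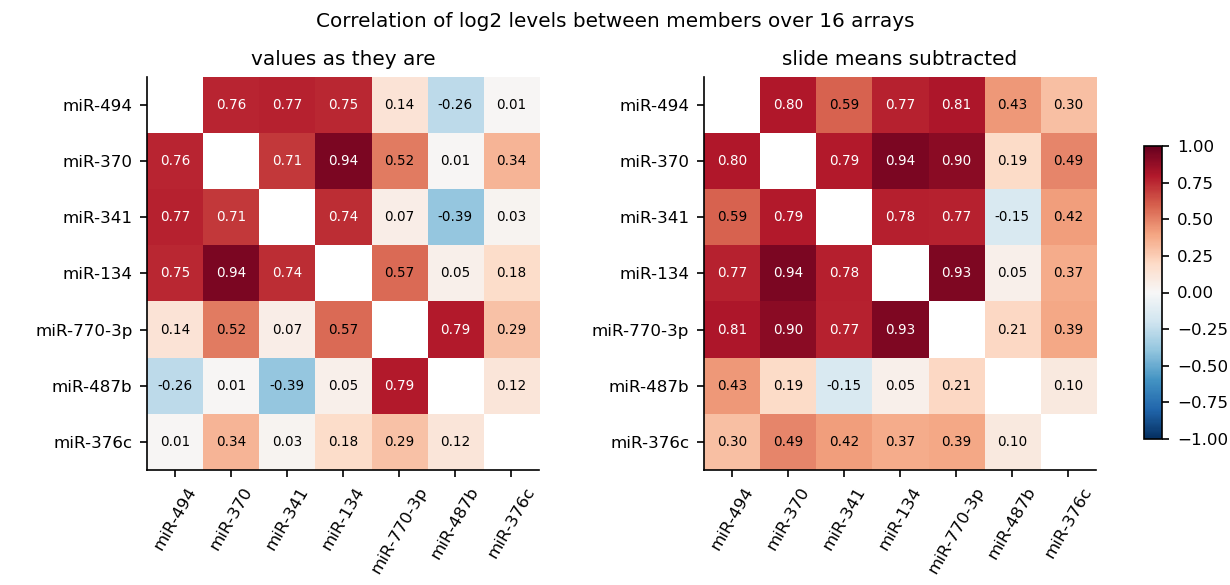
Pearson r of log2 levels between the 7 tested members over 16 arrays, as they are (left) and with slide means subtracted (right). miR-494, miR-370, miR-341 and miR-134 form a block in both panels, miR-770-3p joins it on the right, and miR-487b loses its r of 0.79 with miR-770-3p.

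The miRs outside the locus whose levels were most like each member were not the same for the MEP-high members as for miR-487b and miR-770-3p. Closest to miR-370 were miR-680, miR-188-5p and miR-705, with r of 0.97, 0.96 and 0.95. Closest to miR-134 were miR-705, miR-721 and miR-30c-1*, at 0.95, 0.94 and 0.93, to miR-341 miR-706, miR-714 and miR-721, at 0.93, 0.89 and 0.83, and to miR-494 miR-450a-3p, miR-721 and miR-290-5p, at 0.91, 0.84 and 0.84. Closest to miR-487b were miR-330*, miR-338-5p and miR-224, at 0.9, 0.88 and 0.84. For miR-770-3p they were miR-685, miR-689 and miR-760, at 0.94, 0.86 and 0.83. miR-376c, at the floor on most arrays, reached 0.7 with miR-30b*, 0.55 with miR-468 and 0.51 with miR-327.

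MiRs of other imprinted loci were counted beside the cluster. Of 9 on the array, from Mest, Nespas/Gnas, Igf2 and H19, 3 were detected anywhere and 2 were tested. miR-483, which lies within Igf2, had its highest mean in MEP at 8.26, against 7.26 on the LT-HSC array and 5.5 to 6.31 in the remaining populations. It was higher in MEP by 2.07 (limma adjusted p = 2.32e-06). miR-296-5p, of the Gnas locus, differed by 0.23 (adjusted p = 0.425).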

How the data were processed

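RNA of sorted mouse bone marrow populations, grouped by sample title, was hybridised to 16 single-colour Agilent miR arrays. The deposited scanner files, made by the authors' facility with Agilent Feature Extraction 9.5.3.1 (slide 1) or 10.2.1.3, hold background-subtracted spot intensity with no normalization between arrays, and the probe design build mm9. A table of log2 values, quantile-normalized by the authors in limma, served as an alternative.

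Spots marked non-uniform or population outlier were left out, spots of a probe averaged, and signals quantile-normalized, raised to a floor of 3.069 units (the 95th percentile of negative controls, as a median of the arrays) and put on the log2 scale. The brightest probe well above background on at least 3 arrays stood for a miR, which left 237 miRs. limma 3.58.1 (lmFit, eBayes, R 4.3.3, data.table, version 1.17.8) fitted a mean per population with 10 residual and 3.1 prior degrees of freedom. The LT-HSC array was assumed to vary like the others. Tests were two-sided. A miR was called at a Benjamini-Hochberg adjusted p under 0.05 over the 237 miRs. The difference in a comparison is between means of population means. A bound sets the brighter mean against the higher, per array, of the dim probe's value and the lowest signal that any probe well above background had. Detected members were compared by exact permutation. The fit was tested on simulated data. Same-numbered CMP, GMP and MEP arrays deviated together (r from 0.23 to 0.63). Numbers 1 and 2 lay on slide 1 and number 3 on slide 2. Members with a probe well above background on at least 3 arrays were named with values, those on fewer by name, and the 3 outside miRs most like each tested member by r. Members and lists were chosen with earlier results of these data known. Python 3 with pandas and matplotlib drew the figures. The number of arrays limits the precision.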

Additional observations from a re-analysis of the deposited data

Results flagged for a closer look

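With 16 sets of arrays examined for a value far from the rest, 3 were marked. A chance rate of about 1 in 20 assumes a common mean and spread. It does not apply where a set mixes populations or lies mostly at the floor. Detected members stood at 9 on ST-HSC 2, against 4 to 6 on the other HSC subset arrays, and miR-376c, miR-412 and miR-433* were among them. miR-494 stood at 12.07 on the LT-HSC array, against 9.34 to 10.24 on the other HSC subset arrays. miR-376c stood at 5.88 on MEP 1 and at the floor of 1.62 on the other 8 myeloid progenitor arrays, with all 4 of its probes well above background on MEP 1.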

How the results depend on the processing

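Each result was recomputed under other normalizations, floors, filters and batch terms and with each array left out. Members called in MEP against the other populations (5) were 2 of 2 tested with probes well above background on all arrays (67.6% of all miRs in that fit), 9 of 73 with no filter (30.2%), 0 within slide 2 (1.69%, with 1 MEP array) and 3 of 5 tested without the slide 3 arrays (65%), the last chosen after seeing the data. GMP against MEP (5) gave 3 with normexp (56.1%), 3 with a floor of 10 units (54%), 1 with probes well above background on all arrays (53.3%) and 3 to 5 with an array left out. HSC subsets against myeloid progenitors (2) gave 1 with normexp (44.7%), 1 with the floor of 10 units (43.9%), 1 with the authors' values (46.8%), 0 with probes well above background on all arrays (49.5%), 0 within slide 2 (0%), 0 without the slide 3 arrays (28.2%) and 2 to 4 with an array left out (4 without LT-HSC). ST-HSC against MPP (0) gave 1 with scaling to the 75th percentile of all probes (5.06%), 2 with the slide block (17.7%), 3 within slide 3 (24.9%) and 0 to 1 with an array left out (miR-341, without GMP 2 or GMP 3). Across populations (6) the count was 2 with the strictest filter (81%) and 12 with none (38.1%). The excess of detected members in HSC subsets, 1.75, reversed to -4.84 (exact permutation p = 0.0415) when 1 spot was enough, was 1.62 (p = 0.0475) when 2 probes were required, and 1.22 to 2.11 with an array left out, with exact p under 0.05 without LT-HSC, MEP 2 or MEP 3. Reversed differences were 0.1 for miR-487b in MEP within slide 1, and for HSC subsets -0.14 for miR-487b with the slide block, and -1.1 with the block and -0.51 within slide 2 for miR-770-3p. For ST-HSC against MPP, miR-770-3p went from 0.00 to 0.94 with the block and 0.94 within slide 3. The causes were not tested.

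The replicate number as a replicate block, chosen after seeing the data for the comparisons with HSC subsets, called 1 member, miR-341 (1.81, adjusted p = 0.00225), in ST-HSC against MPP, where same-numbered arrays deviated together by -0.04 to 0.12 and share only a number. It changed no other call. The fit without slide cannot separate slide 3 from ST-HSC and MPP. Signal over background limits what can be said of the 62 undetected members.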
